A study of Mus musculus with 2 samples.

Results

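The 10 genes Pecam1, Kdr, Tek, Tie1, Emcn, Plvap, Flt1, Flt4, Lyve1 and Prox1 mark the endothelium of blood and lymphatic vessels. They were taken by name from the annotation of the array, with every probe of each gene, and made up 10 of the 29923 genes measured. They were covered by 14 probes, each printed on 4 spots, or 56 spots per array. RNA of Pparg-cKO and control ureters at E18.5 was compared directly on 2 two-colour arrays. Pparg-cKO embryos carried Pax2-cre/+ with Pparg(fl/fl), a floxed allele from which cre removes exons 2 and 3, and controls were cre-negative littermates labelled Pparg(fl/?), so that 1 control allele is not stated. All embryos were on the NMRI outbred background. Each array held 1 pool of ureters per genotype, from females in replicate 1 (the female pair) and from males in replicate 2 (the male pair). The dyes were exchanged between the arrays, so sex, dye orientation and array cannot be told apart. Per the study, Pax2-cre recombines in the nephric duct, the ureteric epithelium and the collecting duct system. Recombination in endothelium is not described there.

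Blood vessels of the ureter run in the lamina propria and the outer mesenchyme, outside the urothelium. Endothelial cells respond to vascular endothelial growth factors (VEGFs) through the receptors encoded by Flt1, Kdr and Flt4, and to angiopoietins through the receptor encoded by Tek, with Tie1 as its partner. Lymphatic endothelium is specified from veins by the homeobox factor PROX1, depends on VEGF-C acting through FLT4, and carries the hyaluronan receptor LYVE1. In RNA of whole ureters, fewer endothelial cells and less RNA per cell cannot be told apart.

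The probes are 60-base oligonucleotides. Those of the paired receptors Tek and Tie1 are shown because they lie on corresponding stretches of both genes. Without gaps they aligned over 57 bases, of which 39 were identical (68.4%, in capitals), more than in any other of the 86 pairs of probes to different genes of the set. The next pair, Plvap with Flt1, shared 30 of 59 bases. The Tek probe lies on the plus strand of chr4:94540624-94540683 and the Tie1 probe on the minus strand of chr4:118144132-118144191 (mm9, as the array design gives them).
Tek: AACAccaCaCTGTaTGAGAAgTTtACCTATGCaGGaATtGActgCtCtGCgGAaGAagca
Tie1: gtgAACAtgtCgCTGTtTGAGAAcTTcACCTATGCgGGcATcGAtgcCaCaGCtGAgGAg
Kdr and Plvap were each read by probes at 2 positions, and in both genes the positions gave different ratios in the male pair. Their upstream probes lie on the minus strand, at chr5:76330395-76330454 for Kdr and at chr8:74030739-74030798 for Plvap (mm9).
Kdr: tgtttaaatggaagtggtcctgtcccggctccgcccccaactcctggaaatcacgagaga
Plvap: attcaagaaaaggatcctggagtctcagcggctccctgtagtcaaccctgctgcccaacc
Whether the probes lie in coding sequence or in an untranslated region was not analysed here.

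Of the 10 genes, 9 were well above background in all 4 pools, and Flt4 was not. Transcripts of all blood vessel endothelial genes of the set were thus measured in the dissected ureters. The lymphatic genes were uneven, with Lyve1 far above background, Prox1 dim and Flt4 near the limit of detection. Brightness depends on the probe, so levels of different genes were not compared. Processed signals were also not scaled between the arrays here. Where the 4 pools are ranked below, the order is of these signals only. Pparg-cKO and control are compared by the ratio within each array.

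Signs are given as in the deposited value table, whose columns are titled Pparg-cKO against control, and this direction is only likely. It has the direction of the superficial cell genes, and of the Pparg transcript left after deletion, in the study's text and tissue sections, but it opposes the dye labels on both arrays. Across probes above background, the table correlated with red over green at r = 0.92 in the female pair and r = -0.94 in the male pair, whereas the labels place the control in red on the former and in green on the latter. Should the dye labels hold, higher and lower must be swapped throughout, with the sizes and p-values as given. The targeted gene Pparg was 0.98 higher on the log2 scale in the female pair and 0.96 higher in the male pair (mean 1.96-fold, limma adjusted p = 0.037). With the deposited table limma called 0 genes, and so not Pparg. The Pparg probe starts at base 1562 of the transcript, its place relative to the floxed exons was not analysed here, and it does not check the labels by itself. Pparg signals were 12357 in the Pparg-cKO pool and 6113 in the control pool in the female pair, and 12930 and 6688 in the male pair.

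None of the 10 vessel genes passed either criterion for a difference between Pparg-cKO and control ureters. By a fold rule after the study's methods (both arrays changed the same way by at least 1.5-fold, with the signal limit of 100 set here on the brighter pool), 0 of 8 vessel genes bright enough were called, against 258 of 14015 genes on the array (1.84%). At 1.2-fold on both arrays the count was still 0 of 8, against 865 of 14015 (6.17%). The limma test called 0 of 9 vessel genes at an adjusted p of 0.05, against 169 of 22499 genes tested (0.751%). At an unadjusted p of 0.05 the count was 0 of 9, against 1914 of 22499 (8.51%). Adjusted p-values of the vessel genes ran from 0.65 to 0.97. With 2 arrays the 95% intervals were wide. They reached from -0.37 to 0.68 over the 9 genes on the log2 scale, and all 9 included 0. A fall of more than 1.29-fold lay outside the interval of every vessel gene tested, and a rise of more than 1.61-fold did too. The p-values rest on the spread between the 2 arrays, moderated by the spread of all genes, and hold 1 pair of pools per sex.

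**Figure D1:**
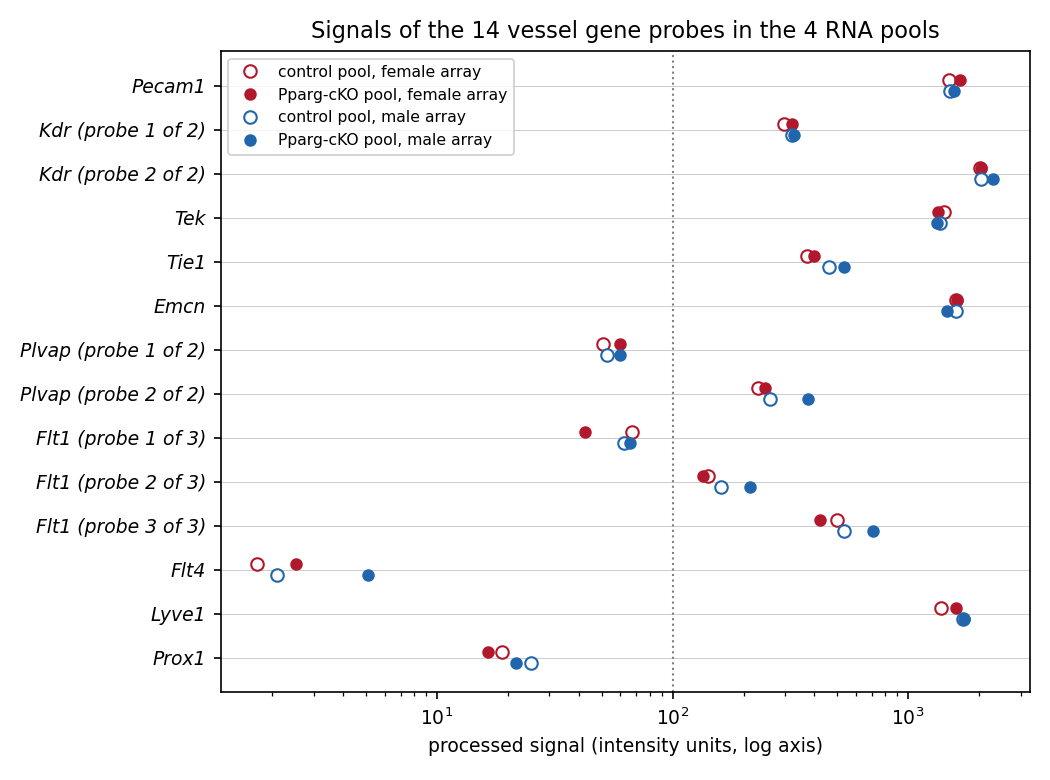
Processed signal (intensity units, log axis) of each of the 14 vessel gene probes in the 4 pools, with open circles for control and filled circles for Pparg-cKO pools, red for the female and blue for the male array, and a dotted line at a signal of 100. Probes of a gene are numbered from 5′ to 3′. The downstream Kdr probe lies between 2020 and 2292, Prox1 between 16.4 and 24.96, and Flt4 between 1.73 and 5.07.

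Most ratios were small. Of the 9 genes tested, 5 (Plvap, Tie1, Lyve1, Pecam1 and Kdr) had a higher ratio on both arrays, against 26.6% of all genes tested, and 2 (Emcn and Prox1) a lower ratio on both, against 26.2%. Flt1 and Tek went opposite ways on the 2 arrays. With median centring in place of loess, 3 genes were higher and 1 was lower on both. With processed signals Tek was lower on both arrays (-0.09 and -0.06) and Emcn went opposite ways (0.02 and -0.13). The median log2 ratio of the 9 genes was 0.02 in the female pair and 0.09 in the male pair, and the median of their means was 0.12. With median centring the medians were -0.03 and 0.24. Over all genes tested the corresponding medians were -0.01, 0.01 and 0.01. The ratio was larger in the male pair than in the female pair for 5 of 9 vessel genes, against 55.2% of all genes tested. The gap between the arrays had a median size of 0.16 for the vessel genes and 0.17 for all genes. The spots of a probe differed by an SD of 0.0027 to 0.18 (log2, median 0.083).

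**Figure D2:**
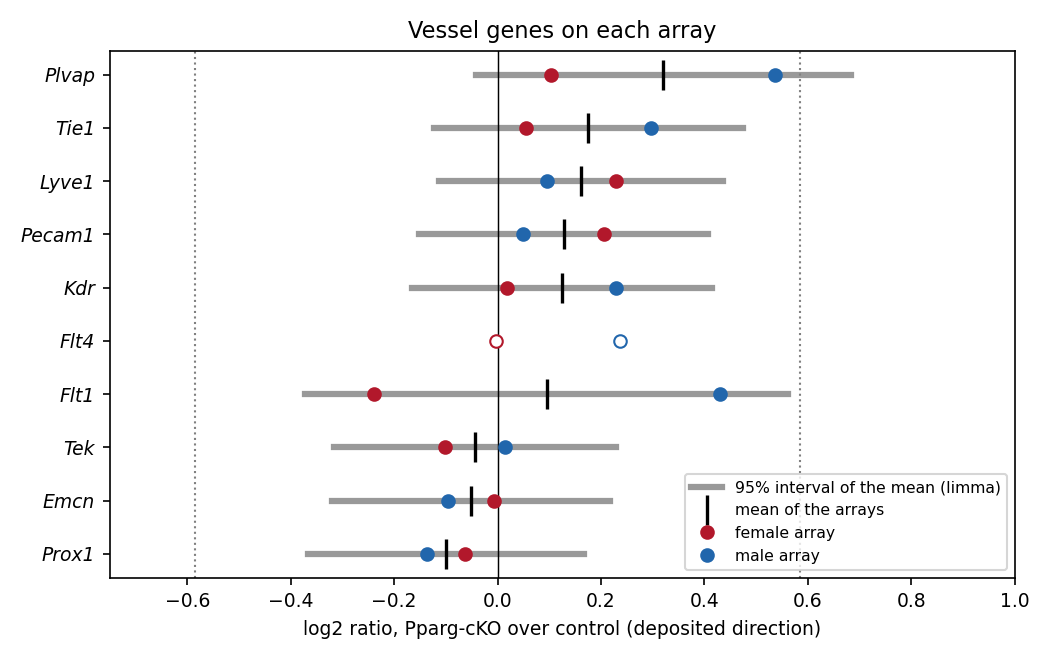
Log2 ratio of Pparg-cKO over control for each vessel gene on the female (red) and male (blue) array, with the mean (black bar) and its 95% limma interval (grey), and dotted lines at 1.5-fold in each direction. Flt4, drawn with open circles, was not well above background and was not tested. All circles lie between the dotted lines, and all 9 grey intervals cross 0.

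Among the VEGF receptors, Kdr, which encodes the main signalling receptor for VEGF-A, was read by a downstream probe with signals of 2047 in the Pparg-cKO pool and 2020 in the control pool in the female pair. On the male array the signals were 2292 and 2045. All 4 pools lay close together, with the male Pparg-cKO pool the highest. The normalised log2 ratio was 0.02 in the female pair and 0.23 in the male pair, with a mean of 0.12 (95% interval -0.17 to 0.41, limma adjusted p = 0.86). Processed signals and normalised ratios had different background and dye corrections, so their quotients can differ, also in sign where the ratio is near 0. The upstream Kdr probe gave signals of 321.9 and 297.2 in the female pair and 327.6 and 322.7 in the male pair. Its log2 ratios were 0.13 and -0.02, so the array with the larger value was not the one found with the downstream probe.

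Flt1, whose product binds VEGF-A tightly and acts largely as a trap for it, was the vessel gene tested with the widest gap between the arrays. Its main probe gave signals of 423.9 in the Pparg-cKO pool against 500.6 in the control pool in the female pair, and 708.1 against 534.5 in the male pair. In these signals, not scaled between the arrays, the female Pparg-cKO pool was the lowest and the male Pparg-cKO pool the highest, with both controls between them. The log2 ratio was -0.24 (spot SD 0.14, 4 spots) in the female pair and 0.43 (spot SD 0.09, 4 spots) in the male pair. The gap was 0.67, and the mean was 0.09 (95% interval -0.37 to 0.56, limma adjusted p = 0.96). The 2 other Flt1 probes showed the same order of arrays. The most 5′ probe had log2 ratios of -0.48 and 0.07 and the middle probe -0.06 and 0.34. The most 5′ probe was dim, with signals from 42.5 to 67.4 in the 4 pools, and background correction with an offset of 50 draws such ratios towards 0.

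Flt4, the receptor gene for VEGF-C and VEGF-D in lymphatic endothelium, was not well above background in either pool in the female pair and in the control pool in the male pair. It was well above background in the male Pparg-cKO pool. Processed signals were 2.52 and 1.73 in the female Pparg-cKO and control pools, and 5.07 and 2.10 in the male pools. These signals were too low for a change in Flt4 to be read.

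Tek, which encodes the receptor of the angiopoietins, had signals of 1339 in the Pparg-cKO pool and 1424 in the control pool in the female pair, and 1320 and 1372 in the male pair. The 4 values lay within a narrow range. The log2 ratio was -0.10 in the female pair and 0.01 in the male pair (mean -0.04, 95% interval -0.32 to 0.23, limma adjusted p = 0.97). Its partner Tie1 had signals of 399.1 and 372.4 in the female Pparg-cKO and control pools, and 532.1 and 461.3 in the male pools. Both Pparg-cKO pools exceeded their own control, but the male control exceeded the female Pparg-cKO pool. The log2 ratio of Tie1 was 0.06 and 0.30, with a mean of 0.18 (95% interval -0.12 to 0.47, limma adjusted p = 0.78). The sign of Tek depended on the scaling, since median centring in place of loess gave a mean of 0.02.

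Pecam1, the adhesion molecule of endothelial junctions that is also found on leukocytes and platelets, had signals of 1667 in the Pparg-cKO pool and 1495 in the control pool in the female pair. The male pools had 1569 and 1502. Both Pparg-cKO pools lay above both controls, by small margins. The log2 ratio was 0.21 and 0.05, with a mean of 0.13 (95% interval -0.15 to 0.41, limma adjusted p = 0.85). Emcn, a sialomucin of venous and capillary endothelium, had signals of 1616 and 1599 in the female Pparg-cKO and control pools and 1461 and 1604 in the male pools. Only the male Pparg-cKO pool stood slightly below the rest. Its log2 ratio was -0.01 and -0.09 (mean -0.05, 95% interval -0.32 to 0.22, limma adjusted p = 0.97), and with median centring the mean was 0.0048.

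Plvap, which forms the diaphragms of endothelial fenestrae and caveolae, had the largest mean ratio of the vessel genes tested. Its main probe gave signals of 246.5 in the Pparg-cKO pool and 231.4 in the control pool in the female pair, and 375.8 and 258.0 in the male pair. The male Pparg-cKO pool stood above the other 3 pools. The log2 ratio was 0.10 in the female pair and 0.54 (1.45-fold) in the male pair, where outlier flags left 2 of 4 spots. The mean was 0.32 (1.25-fold, 95% interval -0.04 to 0.68, limma unadjusted p = 0.072, adjusted p = 0.65). The upstream Plvap probe, with signals from 50.4 to 59.7, had log2 ratios of 0.26 in the female pair and 0.16 in the male pair. Both probes were therefore higher on both arrays, but the larger male value was seen with 1 of them.

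**Figure D3:**
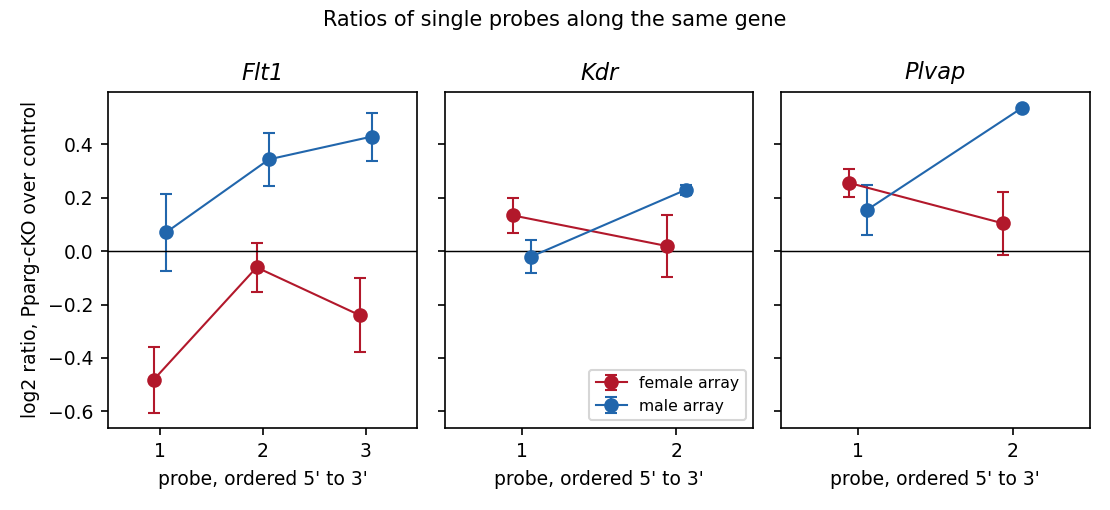
Log2 ratio of each probe of Flt1, Kdr and Plvap on the female (red) and male (blue) array, probes ordered from 5′ to 3′, with error bars for the SD over the spots kept. The male line ends at its highest value in all 3 genes (0.43, 0.23 and 0.54), and the female lines of Kdr and Plvap fall towards the 3′ end.

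In the 3 genes with several probes, the most 3′ probe thus had a higher ratio than the most 5′ probe in the male pair, by 0.36 for Flt1, 0.25 for Kdr and 0.38 for Plvap. On the female array it was higher by 0.24 for Flt1 and lower for Kdr and Plvap, with differences of -0.11 and -0.15. The Flt1 probes were annotated to different transcripts and ordered by genome position. The probes of Kdr lie on the same transcript, and so do those of Plvap. Over 4057 transcripts with probes well above background at more than 1 position, the downstream probe had the higher ratio in 59.2% in the male pair, with a median difference of 0.04. On the female array the share was 52.5% and the median difference 0.01. Amplified RNA is primed from the 3′ end, and the part of probe position in the ratios of the vessel genes was not tested.

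Of the lymphatic genes, Lyve1 had signals of 1592 in the Pparg-cKO pool and 1385 in the control pool in the female pair, and 1728 and 1714 in the male pair. The female control was the lowest of the 4 pools, and the male pools hardly differed. The log2 ratio was 0.23 and 0.09, with a mean of 0.16 (95% interval -0.11 to 0.44, limma adjusted p = 0.78). LYVE1 also marks some macrophages and the sinusoidal endothelium of the liver. All 10 macrophage and leukocyte genes were well above background in at least 1 pool on both arrays, and their summed signal was 9811 in the female and 8574 in the male Pparg-cKO pool, against 8984 and 8488 in the controls. Their median log2 ratio was 0.13 in the female pair and 0.10 in the male pair, and the largest mean among them was that of Cx3cr1, a chemokine receptor gene (0.48 and 0.22, mean 0.35, limma adjusted p = 0.51). Cd68 and Ptprc followed with means of 0.21 and 0.15. Of the 10 genes, 4 were higher and 1 was lower on both arrays, and 5 went opposite ways. The 5 liver sinusoid genes summed to 1269 and 1435 in the Pparg-cKO pools and to 1301 and 1236 in the controls. Of these, 1 was higher and 1 lower on both arrays and 3 went opposite ways. Stab1 had log2 ratios of -0.06 and 0.33, Fcgr2b 0.11 and 0.09, and Oit3 -0.16 and 0.05. The part of these cells in the Lyve1 signal was not tested.

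Prox1 had signals of 16.4 in the Pparg-cKO pool and 18.8 in the control pool in the female pair, and 21.5 and 24.96 in the male pair. Each Pparg-cKO pool lay below its own control, and the female pools lay below the male pools. The log2 ratio was -0.06 and -0.14, with a mean of -0.10 (95% interval -0.37 to 0.17, limma adjusted p = 0.90). The mean was -0.14 with an offset of 0, -0.21 with processed signals and -0.20 with the deposited table (limma adjusted p = 0.92, 0.79 and 0.53). PROX1 is also a factor of hepatocytes, and genes of that cell type were measured in these pools. All 7 hepatocyte genes were likewise above background, with a summed signal of 3299 and 3627 in the Pparg-cKO pools and of 4375 and 7102 in the controls. Without Trf the sums were 1947 and 2164 against 2059 and 4450. Their median log2 ratio was -0.05 in the female pair and -1.07 in the male pair. Trf, the transferrin gene, passed the fold rule with -0.87 and -0.77. Alb, Afp and Fgb had -0.19, -0.05 and -0.13 in the female pair and -1.08, -1.21 and -1.10 in the male pair. The part of hepatocyte RNA in the Prox1 signal was not tested.

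The remaining genes of the vessel pathways, from lists described here for context, gave 0 limma calls among 60 genes tested (0.751% of all genes). Past the fold rule were 2 of the 56 bright enough, against 1.84% of all genes. Of the ligands and coreceptors of the VEGF and angiopoietin receptors, all 11 were tested, 3 were higher and 2 lower on both arrays, and 0 had an unadjusted p under 0.05, against 8.51% of all genes tested. Their median log2 ratio was -0.04 in the female pair and 0.21 in the male pair, where it was 0.43 with median centring and 0.11 with the median over all probes. The median of the means was 0.13, and 0.018 with the median over all probes. Figf, which encodes VEGF-D, had the largest mean of this list, with signals of 1396 and 1477 in the female Pparg-cKO and control pools, with 2093 and 1321 for the male pools. Its log2 ratios of -0.17 and 0.85 left a mean of 0.34 (limma adjusted p = 0.81). Angpt1, which encodes the activating ligand of the Tek product, had 0.15 and 0.45 (adjusted p = 0.61), and Vegfc, the ligand gene of lymphatic growth, had 0.19 and 0.25 (adjusted p = 0.66).

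The 18 other pan-endothelial genes were all tested, 7 were higher and 3 lower on both arrays, and 2 of 18 had an unadjusted p under 0.05, against 8.51% of all genes tested. Their median log2 ratio was -0.02 in the female pair and 0.27 in the male pair. With processed signals the medians were 0.03 and 0.25, and 9 genes were higher and 3 lower on both arrays. Vwf, which encodes the von Willebrand factor stored in endothelial granules, had the largest mean, with signals of 110.3 and 98.9 in the female Pparg-cKO and control pools, with 269.2 and 130.7 for the male pools. Its log2 ratios were 0.09 and 1.01 (mean 0.55, limma adjusted p = 0.62). Cdh5, which encodes the cadherin of endothelial junctions, had 0.18 and 0.52 (mean 0.35, adjusted p = 0.56). Calcrl, part of the adrenomedullin receptor, was lower on both arrays, with -0.61 and -0.26 (mean -0.43, adjusted p = 0.43).

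All 9 endothelial transcription factor genes were tested, 6 were higher and 0 lower on both arrays (26.6% and 26.2% of all genes), and 0 had an unadjusted p under 0.05. Their median log2 ratio was 0.02 in the female pair and 0.32 in the male pair. Sox17, Sox7 and Hhex had means of 0.33, 0.33 and 0.25. Their ratios in the female pair were 0.02, 0.12 and 0.03, and in the male pair 0.64, 0.54 and 0.48. The male array gave the larger ratio for 8 of these 9 genes and for 15 of the 18 other pan-endothelial genes, compared with 55.2% of all genes tested. It also did so for 10 of 10 ureteric epithelium genes, 9 of 11 ligands and coreceptors and 6 of 8 pericyte genes. Among macrophage and leukocyte genes it did so for 3 of 10, and among mesenchyme and muscle genes for 2 of 8. With median centring the female medians were -0.05 and -0.07 and the male medians 0.57 and 0.49, for the transcription factors and the other pan-endothelial genes. The count of transcription factor genes higher on both arrays was then 3, and 4 with processed signals or the deposited table. Each sex is 1 pair of pools, and the gap between the pairs was not tested.

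Among the 8 artery and vein genes, 7 were higher and 0 lower on both arrays, and 4 of 8 had an unadjusted p under 0.05, against 8.51% of all genes tested. Efnb2, which encodes the ephrin of arterial endothelium and is also expressed in other tissues, was the only one of them past the fold rule. Its signals were 2404 in the Pparg-cKO pool and 1339 in the control pool in the female pair, and 3384 and 1631 in the male pair. Both Pparg-cKO pools lay above both controls. The log2 ratios were 0.80 and 1.07 (mean 0.93, 95% interval 0.63 to 1.24, limma adjusted p = 0.060). A more upstream Efnb2 probe had 0.11 and 0.56, and with the median of both probes (0.46 and 0.82) Efnb2 did not pass the fold rule. Gja4, a connexin gene of arteries, had 0.45 and 0.35 (adjusted p = 0.35), and Nr2f2, a factor of venous identity also found in mesenchyme, had 0.25 and 0.38 (adjusted p = 0.50). Unc5b, a netrin receptor gene, had 0.18 and 1.03 (adjusted p = 0.54). The median of the list was 0.21 in the female pair and 0.37 in the male pair.

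Of 6 other lymphatic genes tested, 3 were higher and 0 lower on both arrays, with medians of 0.00 and 0.27. With median centring 1 was higher on both. Tbx1, a T-box factor gene needed in lymphatic endothelium and expressed in other tissues too, passed the fold rule. Its signals were 127.0 and 55.2 in the female Pparg-cKO and control pools and 266.7 and 62.6 in the male pools. Both Pparg-cKO pools stood apart from both controls, and the log2 ratios were 0.96 and 1.81 (mean 1.39, 95% interval 0.83 to 1.94, limma adjusted p = 0.10). Foxc2, a factor gene of lymphatic valves, had -0.03 and 0.54. Reln had 0.00 and 0.27 and Itga9 0.02 and 0.12.

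**Figure D4:**
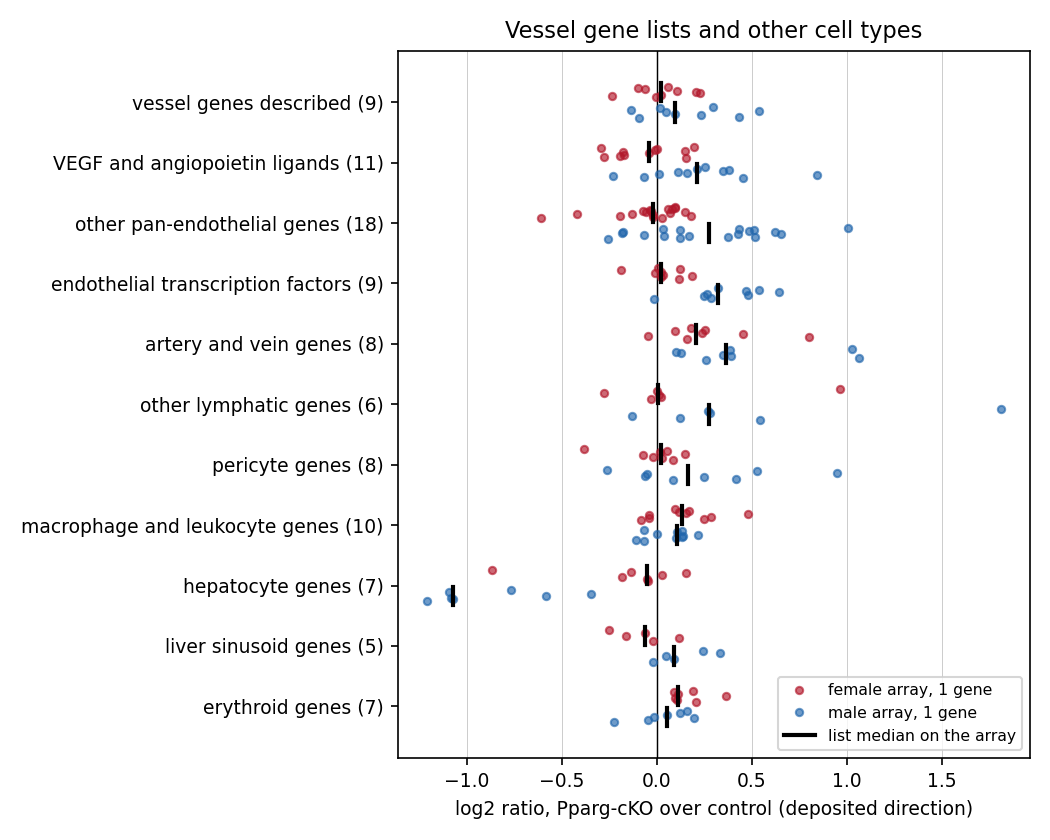
Log2 ratio of Pparg-cKO over control of each gene tested, by list, on the female (red) and male (blue) array, with black bars at the list medians and the number of genes tested in brackets. The male medians of the vessel lists lie between 0.09 and 0.37, and the male median of the hepatocyte genes lies at -1.07.

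Pericytes wrap small vessels. All 8 pericyte genes were tested, and 4 were higher and 2 lower on both arrays. With median centring 1 was higher and 1 lower, and with processed signals 2 and 2. In the main setting the median log2 ratio was 0.02 and 0.17. The female median was -0.05 with median centring and -0.04 with processed signals, and the male median 0.36 and 0.14. Notch3 had 0.02 and 0.95, Pdgfrb 0.05 and 0.53, and Rgs5 -0.39 and -0.27 (limma adjusted p = 0.68, 0.70 and 0.48). The 7 erythroid genes, a reading of blood retained in the tissue, summed to 80210.5 and 73764 in the Pparg-cKO pools and to 72482 and 70767 in the controls. Of these, 4 were higher on both arrays and 3 went opposite ways, with medians of 0.11 and 0.05. Rhag, among the 4, and Epb4.2 had signals from 2.03 to 5.08, as low as those of Flt4. Most of each sum came from Hba-a1 and Hbb-b1, with 53703 and 25374 in the female Pparg-cKO pool. Hba-a1 had 0.36 and -0.01 and Slc4a1 0.19 and 0.16. Kidney genes were dim, with 5 of 7 tested and sums from 216.6 to 294.7. Of these, Lrp2 had -0.13 and -0.89 and Slc34a1 -0.06 and -0.22.

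Epithelial genes were measured in the same pools. Of 10 ureteric epithelium genes, Krt19 was higher and Upk1b lower past the fold rule, by 0.71 and 1.29 and by -1.30 and -0.73 on the log2 scale. Krt18 had -1.04 and -0.54, Upk2 -0.74 and -0.28, and Cdh1 0.07 and 1.10. Their summed signal was 82652 against 110080 in the female pair and 99827 against 95791 in the male pair. Of the 8 mesenchyme and muscle genes, 0 passed the fold rule, against 1.84% of all genes bright enough, and their sums were 194726 against 196084 and 196674 against 187800. Col1a1 had 0.14 and 1.07, Tagln -0.21 and -0.28, and Acta2 0.11 and -0.52. The vessel genes tested summed to 9346 against 9046 in the female pair and to 10008 against 9516 in the male pair, a ratio of 1.03 and 1.05.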

How the data were processed

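The scanner files hold spot intensity on a linear scale (mean signal, median local background and processed signal) as the authors deposited it from Agilent Feature Extraction 10.7.3.1, with outlier and background flags. The log10 ratio per spot in the deposited files was not used. The authors' deposited value table holds a signed fold change per probe, read as a score, with exactly 1 in 28.3% and 28.4% of cells; it served for the direction and as an alternative. Control spots were left out, outlier flags removed 2.87% and 3.24% of spots, and 0 were saturated. Spots were corrected with normexp (offset 50) and loess within arrays in limma 3.58.1 under R 4.3.3. Kept spots were averaged, and a gene was represented by its brightest probe. limma fitted the mean of both arrays per gene, two-sided, and p-values were adjusted (Benjamini-Hochberg) over 22499 genes well above background (a share of at least 0.5 of a probe's spots) in at least 1 channel on both arrays, with 1 residual and 4.00 prior degrees of freedom. The scripts were tested on simulated data. The number of arrays limits the precision. Named were all 10 vessel genes, Pparg and, of other lists, genes past the fold rule plus the 3 with the largest mean ratio, of which 2 are not reported here. Members and lists were chosen with earlier results of these data known. Alternatives were an offset of 0, processed signals, median centring, the median of all probes, no dim-probe filter, the deposited table, each array alone, a signal of 50 and 1.2-fold.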

Additional observations from a re-analysis of the deposited data

Results flagged for a closer look

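Among 69 genes tested in the vessel and pericyte lists, 2 differed between the arrays in direction by at least 1.2-fold on each, against 310 of all genes tested (1.38%), and 0 of these 2 were among the 10 vessel genes described. Egfl7, which encodes a secreted endothelial protein, had a log2 ratio of -0.42 in females and 0.65 in males, a difference of 1.07. Pdpn, a membrane glycoprotein gene of lymphatic endothelium and mesenchyme, had -0.28 and 0.28, a difference of 0.56. Both were named after their values were seen, and the differences were not tested.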

How the results depend on the processing

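The counts of vessel genes past the fold rule and called by limma were 0 under every alternative run. Over 6 alternatives their adjusted p-values ran from 0.53 to 1.00, and the number with an unadjusted p under 0.05 was 0 except for Prox1 in the deposited table. Of 59 vessel gene values, 2 changed sign, both with median centring: Tek to 0.016 and Emcn to 0.0048. Others moved in size, with means over the 6 alternatives from 0.052 to 0.19 for Flt1, 0.15 to 0.27 for Tie1 and -0.21 to -0.067 for Prox1. Flt4, near background, moved from 0.12 to 0.30 with an offset of 0 and to 0.98 with processed signals. The median of the vessel genes was 0.18 with median centring and ran from 0.019 to 0.095 on single arrays, and all 36 medians of the other vessel lists moved by less than the spread between arrays. Over all genes, limma called 571 with an offset of 0, 94 without the filter on dim probes and 0 with the deposited table, where 2101 genes had an unadjusted p under 0.05. Single arrays put 444 to 1253 genes past 1.5-fold. The causes were not tested. Single arrays give values with no test. No separate paired analysis was run because each array holds both pools, so that the ratio already pairs them. The Flt4 probe, near background, and the dim Prox1 probe limit what can be read of the lymphatic genes.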
